A study of Drosophila melanogaster with 4 samples.

Results

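H2Av-enriched regions on the euchromatic part of chromosome arm 3R of Drosophila melanogaster were described by their position, width, spacing and density. A region belonged to this set when its midpoint lay on 3R above position 2000000, outside 2480000 to 2850000 and 12480000 to 12810000, the stretches that hold the Hox complexes. The rule used position alone and no score. It kept 1710 of the 9667 regions in the list of H2Av ChIP replicate 1, 886 of the 4664 in that of H2Av ChIP replicate 2 and 1398 of the 7944 in a further list deposited for both replicates together, here the combined list. The stretch read was 25.2 Mb long, of the 27.9 Mb of the assembled arm.

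Chromatin came from nuclei of wild-type Oregon-R larvae in the 3rd instar, crosslinked with formaldehyde, sonicated and precipitated with an antibody against H2Av (9751), and was sequenced as 2 ChIP libraries beside 2 input libraries of the same chromatin type. Tissues were homogenized together, so nuclei of many larval cell types are mixed, and lists of regions hold no marker by which to check the stage or the tissues. Nothing in the labels ties the replicates to different batches of larvae, and their spread may be technical. Each replicate list was called with the input of its own replicate number, and the read depth behind the lists is unknown.

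H2Av is the H2A variant of Drosophila and does the work of both H2A.Z and H2A.X. As a form of H2A.Z it is known from nucleosomes downstream of the start sites of active genes, and in this fly it is also found in heterochromatin. Its phosphorylated form marks DNA breaks. Arm 3R is the longest of the assembled arms compared here. Coordinates are those of FlyBase release 5, per the file headers. No genome sequence or gene positions of that release were used here, so regions are named by position and carry no sequence or gene name.

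H2Av regions took up 24.4% of euchromatic 3R in replicate 1, 18.8% in replicate 2 (mean 21.6% ± 3.91, SD, n = 2), and also 24.4% in the combined list. This percent of bases inside regions is called coverage below. In length it was 6.14 Mb for replicate 1, 4.75 Mb for replicate 2 and 6.15 Mb for the combined list. The lists reached these totals in different ways, with more and narrower regions in replicate 1. Density was 67.8 regions per Mb in replicate 1 and 35.2 in replicate 2 (mean 51.5 ± 23.1, SD, n = 2), and 55.5 in the combined list. Replicate 1 regions had a median width of 2530 bp, replicate 2 regions 3749 bp and combined regions 2924 bp. The middle 50% of widths ran from 1706 to 4185 bp in replicate 1 and from 2561 to 6534 bp in replicate 2. No replicate list held a 3R region narrower than 1302 bp, and the combined list none narrower than 1001 bp. The narrowest regions of the whole series measured 1301 bp in each replicate list and 1001 bp in the combined list, so these limits are not particular to 3R.

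With its Hox stretches left out, 3R had a coverage between that of X and those of 3L and 2L in each of the 3 lists. The other arms were read without the 2 Mb next to the centromere, as 3R was, but only 3R also lost its Hox stretches. Replicate 1 had 29 regions with midpoints there, and replicate 2 had 3. Coverage of 3R with these stretches alone put back was not computed. Reading whole arms put them back together with the ends next to the centromere. Mean coverage of 3R was then 22.1%, and 3R minus X, 2L and 3L pooled was -0.0346 percentage points. The part of the Hox cut alone in the order of the arms, by coverage or by density, was not tested. Replicate 1 covered 24.4% of 3R, against 25.6% of X, 24.2% of 3L and 23.4% of 2L. Replicate 2 covered 18.8% of 3R, against 18.96% of X, 17.2% of 3L and 16.5% of 2L. The combined list gave the same order, with 24.4% on 3R, against 25.8% on X, 23.2% on 3L and 22.2% on 2L. With the other arms pooled, 3R minus X, 2L and 3L came to -0.044 percentage points in replicate 1 and 1.31 in replicate 2 (mean 0.633 ± 0.957, SD, n = 2; 21.6% on 3R against 20.97% on the pooled arms). The replicates differ in sign and the mean is smaller than its spread (exact sign-flip permutation test, 2-sided, p = 1, where 2 replicates can give no p under 0.5). Arm by arm the sign was the same in both replicates, with the Hox stretches left out of 3R alone. The difference was -1.26 and -0.128 points from X, 0.128 and 1.65 from 3L, and 0.959 and 2.34 from 2L (exact sign-flip permutation test, 2-sided, p = 0.5 for each, the smallest possible). These differences are smaller than the SD between replicates of 3R, 3.91 points. That SD holds the offset between the lists, which is left out when arms are compared within a list. The mean differences were -0.696 ± 0.804 from X, 0.891 ± 1.08 from 3L and 1.65 ± 0.976 from 2L (SD, n = 2). Those from X and 3L are smaller than their own SD.

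In density and median width 3R was also close to these arms when pooled, while in replicate 2 its median gap was shorter than theirs. Region density was 67.8 and 35.2 per Mb on 3R in replicates 1 and 2, against 66.2 and 32.6 on the pooled arms. Arm by arm it was 68.6 and 35.9 on X, 66.2 and 32.8 on 3L, and lowest on 2L with 63.7 and 29.1. Median widths differed by 18 bp or less from those of the pooled arms, with 2530 and 3749 bp on 3R against 2548 and 3763 bp there. On the single arms they ran from 2421.5 to 2617 bp in replicate 1 and from 3660 to 3855 bp in replicate 2. The median gap between neighbouring regions was 2929 bp on 3R against 2924 bp on the pooled arms in replicate 1. In replicate 2 it was 3823 bp on 3R against 4518 bp there, below each single arm, whose medians ran from 4252 to 4953 bp. This did not hold for the mean gap of replicate 2, which was 22923 bp on 3R and 22570 bp on X. On 3L and 2L that mean was 24716 and 28556 bp. In replicate 2 the share of broad regions was 13.3% on 3R against 10.1% to 12.4% on the single arms, while in replicate 1 it was 4.44% against 4.35% to 5.38%. With 1 value per library no test of these differences can pass a threshold.

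**Figure D1:**
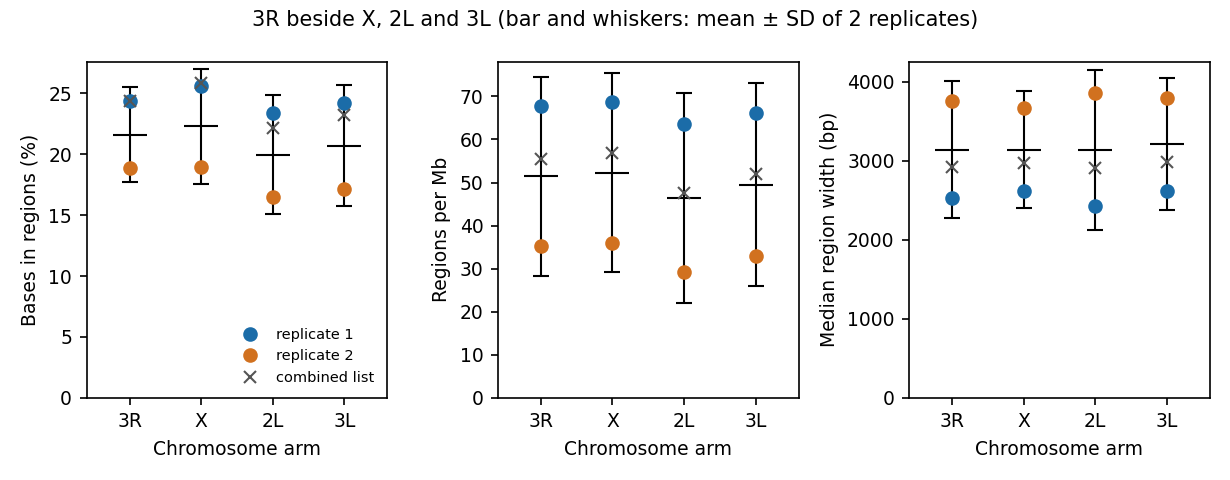
Coverage in percent of bases, regions per Mb and median region width in bp for 3R, X, 2L and 3L, with a dot for each replicate list, a cross for the combined list, and bars for the mean ± SD of the 2 replicates. On each arm replicate 1 lies above replicate 2 in coverage and density and below it in width, and 3R, at 21.6% mean coverage, sits within the range of the other arms.

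Broad regions made up shares of the 3R regions near those of the whole lists. Regions of 10 kb or more numbered 76 in replicate 1 (4.44% of its 3R regions, against 5.87% over its whole list). In replicate 2 they numbered 118 (13.3%, against 12.3%), and the combined list had 129 (9.23%, against 9.74%). Of the region bases of 3R they held 17.5% in replicate 1 and 36.3% in replicate 2, while the combined list had 32.6% in them. At the other end, 631 regions of replicate 1 were under 2 kb (36.9%), against 131 of replicate 2 (14.8%). The class from 2 to 5 kb was the most numerous in each replicate, with 764 and 441 regions.

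Wider regions carried higher scores. The score is the authors' own value for each region, whose scale is not given in the sources used here, and it serves below to rank regions within 1 list. Median scores in replicate 1 were 0.491 under 2 kb, 0.795 from 2 to 5 kb, 1.11 from 5 to 10 kb and 1.21 at 10 kb or more. In replicate 2 the same classes had medians of 0.493, 0.853, 1.14 and 1.28. Across all 3R regions of a list the Spearman correlation of width with score was 0.76 in either replicate (n = 1710 and n = 886) and 0.75 among combined regions (n = 1398). These are correlations across regions of 1 library each and carry no test.

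With each list as deposited, nearly all 3R regions of replicate 2 were also marked in replicate 1, and over 50% the other way round. In replicate 2, 837 of the 886 regions met one of replicate 1 over at least 1 bp, which is 94.5% (95% Clopper-Pearson interval 92.8 to 95.9, counting error only). Over the whole list of replicate 2 the share was 95.0%. In the other direction 976 of 1710 regions were shared, or 57.1% (54.7 to 59.4), against 50.4% over the whole list of replicate 1. On X, 3L and 2L the shares of replicate 1 regions were 56.8%, 54.3% and 50.4%, and those of replicate 2 regions 95.1%, 95.3% and 95.6%. Replicate 1 has the longer list, which makes it easier for a replicate 2 region to meet one of its regions. With both lists cut by score to 886 regions on 3R the order turned, with 73.02% of replicate 2 regions and 75.96% of replicate 1 regions shared. Bases marked in both replicates came to 4.07 Mb, or 66.2% of what replicate 1 marked and 85.7% of what replicate 2 marked. Both lists marked 16.1% of euchromatic 3R, replicate 1 alone 8.23%, replicate 2 alone 2.69% and neither 72.9%.

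Whether a 3R region of replicate 1 was also in replicate 2 went with its width. Of its regions under 2 kb, 122 of 631 were shared (19.3%), and of those from 2 to 5 kb 548 of 764 (71.7%). From 5 to 10 kb 232 of 239 were shared (97.1%), and at 10 kb or more 74 of 76 (97.4%). In replicate 2 the shares were 73.3%, 97.1%, 99.5% and 100% in the same order. A wide region meets any other more easily than a narrow one, so part of this order is built into an overlap of 1 bp. By score, 49 of the 171 lowest-scoring regions of replicate 1 were shared (28.7%) and 156 of the 171 highest-scoring (91.2%). In replicate 2 none of the 49 unshared regions scored above 0.675, and each of the 601 regions above that was shared.

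**Figure D2:**
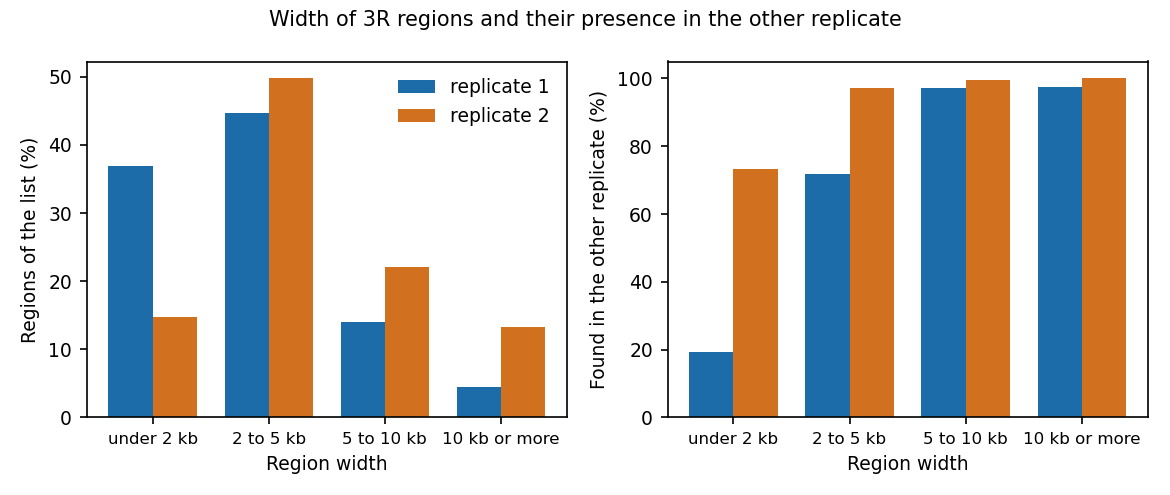
Left, percent of the 3R regions of each replicate list in 4 classes of width; right, percent of the regions of each class that overlap a region of the other replicate by at least 1 bp. In the class under 2 kb the other list held 19.3% of those from replicate 1 and 73.3% of those from replicate 2, and from 5 kb up 97.1% or more of either.

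The unshared regions lay in different surroundings in the 2 lists. The 49 regions found in replicate 2 alone stood close to replicate 1 regions, at a median distance of 1491 bp, and 40 of them (81.6%) lay within 5 kb of one. The 734 regions found in replicate 1 alone lay at a median of 9650 bp from the nearest replicate 2 region. Of these, 265 (36.1%) lay within 5 kb and 223 (30.4%) at 20 kb or more, the farthest at 155855 bp. Replicate 2 has fewer regions on the arm, so the distance to its nearest one is longer by construction.

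Regions that met 1 to 1 had both ends close together in under 50% of pairs, and their scores ranked alike, less so among the higher scores. There were 541 such pairs on 3R, with a median width of 3672 bp in replicate 1 and 3564 bp in replicate 2, and the replicate 2 region was the wider in 276 (51.0%). Their starts differed by a median of 319 bp and their ends by 334 bp, and in 246 pairs (45.5%) both ends lay within 500 bp. The Spearman correlation of scores across the pairs was 0.75, the Pearson correlation 0.75 and the Spearman correlation of widths 0.78, as descriptions of the 2 libraries. With only the upper 50% of scores kept in each list, 337 pairs were left and their Spearman correlation of scores was 0.49. The greater width of replicate 2 regions on the arm was thus not seen in these pairs. Elsewhere, 190 regions of replicate 2 (21.4%) overlapped at least 2 regions of replicate 1, up to 5, by 1 bp or more each. In the other direction 87 regions of replicate 1 (5.09%) overlapped 2 or more of replicate 2. Of 1704 gaps of at least 1 bp between neighbouring replicate 1 regions, 228 lay inside a single replicate 2 region, and these gaps had a median length of 447 bp.

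**Figure D3:**
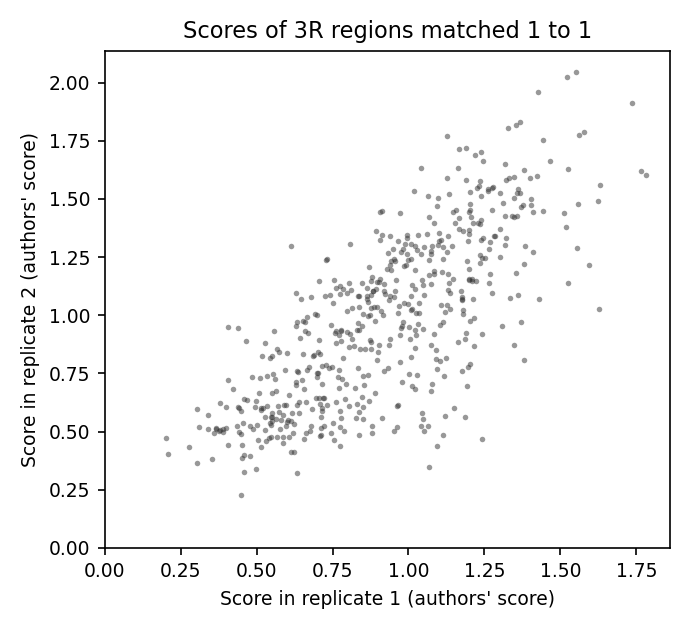
Authors' score in replicate 2 against that in replicate 1 for the 541 pairs of 3R regions that overlap 1 to 1, a dot for each pair. Pairs high in one replicate are mostly high in the other (Spearman correlation 0.75, and 0.49 with only the upper 50% of scores kept).

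The combined list drew mostly on places marked in both replicates. Of its 1398 regions on 3R, 790 (56.5%) overlapped both replicate lists, against 50.0% over the whole combined list. Another 418 (29.9%) overlapped replicate 1 alone, 59 (4.22%) replicate 2 alone and 131 (9.37%) neither. The 790 had a median width of 4755 bp and held 82.9% of the region bases of the list. Those overlapping neither had a median width of 1213 bp and held 2.78%. These shares count whole regions. Counted base by base, 66.1% of the combined list was marked in both replicates and 20.3% in replicate 1 alone. Another 8.04% was marked in replicate 2 alone and 5.58% in neither. Starts and ends of the combined list were even numbers in 100% of cases, against 48.8% of starts in replicate 1 and 50.0% in replicate 2.

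The highest scores of the combined list on 3R belonged to narrow regions that neither replicate list holds. The 6 top-ranked regions were 1001 to 1977 bp wide and scored 2.33 to 3.54. They lay at 9847732 to 9848984, 3870532 to 3871532, 27241476 to 27243452, 6786180 to 6787180, 26306568 to 26307674 and 8749634 to 8750754. Each of these scores was repeated exactly by other regions of the combined list, so that 5 to 32 regions of the series carried the same value. None of the next 4 regions in the order shared its score with another region, and those were 3977 to 13117 bp wide and present in both replicates. In the top 10% of 3R scores 131 of 140 combined regions were in both replicates, and 7 in neither. In the lowest 10% 12 of 139 were in both and 38 in neither.

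Among combined regions present in both replicates, the highest-scoring one lay at 24873340 to 24883116 (9.78 kb, score 1.79). A single replicate 1 region of 10585 bp with a score of 1.73 covered 99.2% of it, and a single replicate 2 region of 9248 bp with a score of 1.91 covered 93.5%. It stood above 99.5% of 3R scores in replicate 1 and 99.3% in replicate 2. The following ones lay at 20746740 to 20753868 (score 1.74), 23777442 to 23790558 (1.73), 19820396 to 19824372 (1.69), 23088562 to 23092778 (1.69) and 19748048 to 19760892 (1.68). Replicate 1 regions covered 85.3% to 100% of these 5 and replicate 2 regions 85.6% to 100%. The region at 23777442 to 23790558 held the highest score of any 3R region in replicate 2, 2.05. All 6 lay in the part of the arm nearest the telomere when the stretch is cut into 3 parts of equal length. That does not hold further down the list. Of the 40 highest-scoring regions present in both replicates, 14 lay nearest the centromere, 13 in the middle and 13 nearest the telomere.

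The widest combined regions present in both replicates were called as several regions in at least 1 replicate. The widest spanned 42.7 kb at 21034056 to 21076790, where replicate 1 had 4 regions, the widest of 25715 bp, and replicate 2 had 2, the wider of 27868 bp. Replicate 1 regions covered 95.7% of it and replicate 2 regions 98.5%. The next, 31.4 kb at 4067806 to 4099174, was a single region of 31176 bp in replicate 2 and 5 regions of at most 8932 bp in replicate 1. The others were 30.8 kb at 20647940 to 20678740, 30.2 kb at 15860130 to 15890328, 27.3 kb at 21491378 to 21518666 and 26.6 kb at 19930896 to 19957530. Replicate 1 called the region at 21491378 to 21518666 as 1 piece of 28608 bp, its widest on 3R, and replicate 2 called it as 2. Their combined scores ran from 0.880 to 1.32, below those of the top-scoring regions named above.

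Some regions scored high in replicate 1 and were missing from replicate 2. The highest 3R score of replicate 1, 3.59, belonged to a region of 1469 bp at 3534342 to 3535810 that met no replicate 2 region. The next of this kind lay at 3922020 to 3924250 (2231 bp, score 1.96) and 23682476 to 23683965 (1490 bp, score 1.87). Each stood above 99.8% or more of 3R scores in its list, and the combined list holds a region at each of the 3. The reverse was not seen, since the highest-scoring regions of replicate 2 alone, at 24701124 to 24704646, 25809726 to 25816672 and 6164230 to 6165576, scored 0.675, 0.667 and 0.655. These stood above no more than 32.1% of its 3R scores.

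H2Av regions on 3R came in runs, separated by long empty stretches. Neighbouring regions less than 5 kb apart were taken as 1 run. This gave 643 runs in replicate 1, or 25.5 per Mb, 392 in replicate 2, or 15.6 per Mb, and the combined list had 477. Runs of 3 or more held 67.8% of replicate 1 regions, 60.5% of replicate 2 regions and 72.2% of combined regions. The pooled arms X, 2L and 3L had 68.2%, 53.4% and 69.3% in the same lists. Single regions made up 45.9% of runs in replicate 1 and 48.0% in replicate 2. The longest run of replicate 1 held 18 regions over 124.2 kb at 20858251 to 20982452, and that of replicate 2 held 12 over 80.8 kb at 20857989 to 20938786, in the same place. That of the combined list, 19 regions over 110.9 kb, lay at 23431492 to 23542424, a span covered to 52.2% by replicate 1 and to 65.5% by replicate 2.

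Gaps between neighbouring 3R regions were unequal. The middle 50% of gaps ran from 951 to 9567 bp in replicate 1 and from 1093 to 16803 bp in replicate 2, and the SD of the gaps was 2.14 and 2.12 times their mean. On the pooled arms it was 2.22 and 2.19 times. Gaps of at least 50 kb were 87 of 1707 in replicate 1 (5.10%) and 114 of 883 in replicate 2 (12.9%), and they held 44.1% and 71.8% of the bases between regions. Gaps under 1 kb made up 25.8% and 23.3% of the gaps on 3R, against 26.6% and 20.2% on the pooled arms.

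**Figure D4:**
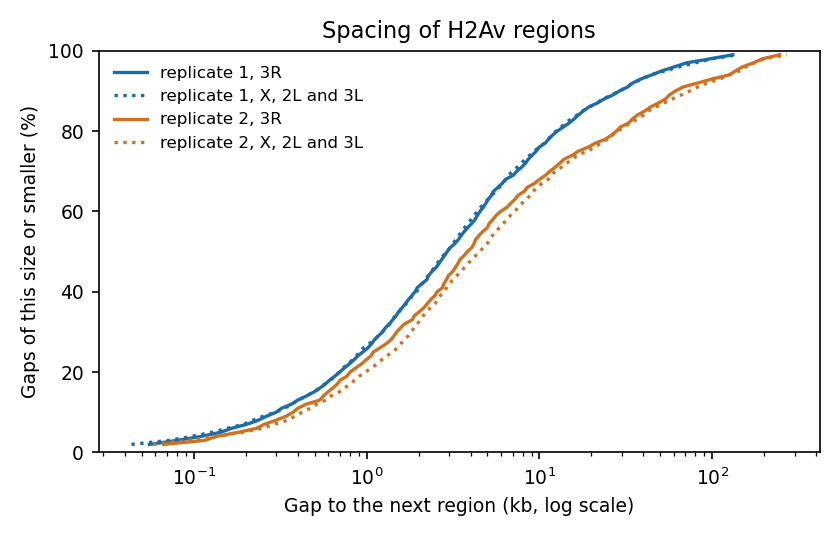
Percent of gaps between neighbouring regions that are of a given length or shorter, against the length in kb on a log scale, for replicates 1 and 2 on 3R (solid) and on X, 2L and 3L pooled (dotted). The replicate 1 curves of 3R and of the other arms lie close together, with medians of 2929 and 2924 bp. In replicate 2 the median gap is shorter on 3R, at 3823 against 4518 bp.

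No list marked 71.6% of the stretch, and much of this lay in long empty pieces. Pieces of at least 100 kb without a region in any list numbered 33 and made up 18.5% of euchromatic 3R, and those of at least 50 kb numbered 82 and made up 31.9%. The longest were 248.1 kb at 23815858 to 24063958, 227.5 kb at 23127602 to 23355123, 192.6 kb at 11320927 to 11513490, 179.6 kb at 26432959 to 26612543 and 173.5 kb at 22102788 to 22276269. The gap of a single list at these places cannot be shorter than the piece, since a piece is empty in all lists. Gaps there ran from 174.8 to 248.1 kb in replicate 1, from 200.7 to 350.2 kb in replicate 2 and from 179.7 to 315.1 kb in the combined list. Of the 6 high-scoring regions found in both replicates, the one at 23777442 to 23790558 ended 25.3 kb before the longest piece, and the one at 23088562 to 23092778 ended 34.8 kb before the next longest. The other 4 lay 809.4 to 2342 kb from the nearest of these 5 pieces.

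Coverage rose and fell along 3R over short distances, in the same places in both replicates. Over 25 windows of 1 Mb it ran from 12.8% to 41.0% in replicate 1 and from 8.33% to 33.9% in replicate 2, with a Pearson correlation of 0.90 between them as a description. The most covered window, from 20 to 21 Mb, had 41.0% and 33.9% (mean 37.5% ± 4.99, SD, n = 2) and the most regions of any window, 101 in replicate 1 and 64 in replicate 2. It was followed by the windows from 12 to 13 Mb with 38.7% and 31.3%, of which the Hox stretch is left out, and from 5 to 6 Mb with 36.5% and 28.1%. The least covered windows ran from 22 to 23 Mb, with 12.8% and 9.19%, from 13 to 14 Mb, with 15.1% and 8.33%, and from 26 to 27 Mb, with 13.7% and 10.8%. The windows from 12 to 13 and from 13 to 14 Mb, among the most and the least covered, are neighbours.

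**Figure D5:**
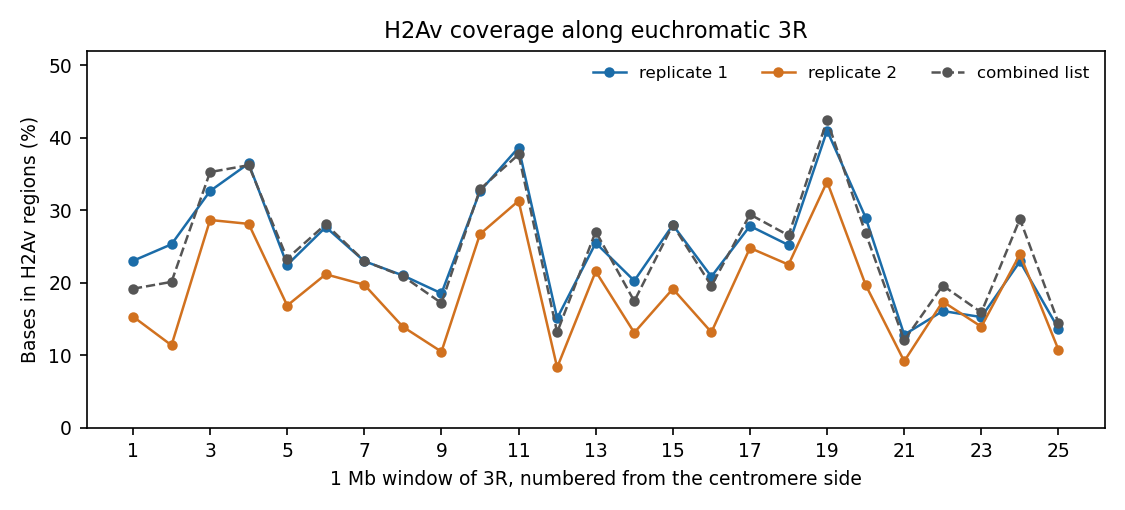
Percent of bases in H2Av regions in each full window of 1 Mb of euchromatic 3R, numbered from the centromere side, in replicates 1 and 2 (solid) and the combined list (dashed). The lists rise and fall together, with the highest value of each at window 19 (41.0% in replicate 1, 33.9% in replicate 2), and the replicate lines meet near the telomere side. Not shown is the shorter last piece, from 27 to 27.9 Mb, with 22.6% in replicate 1 and 17.0% in replicate 2.

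At 100 kb the contrast was larger and the 2 replicates still matched. Replicate 1 left 14 of 253 windows empty and replicate 2 left 56, and the 14 were among the 56. The other 42 windows without replicate 2 regions held 121 regions of replicate 1 and had a median coverage of 3.88% there. Over 50% of bases were covered in 20 windows of replicate 1 and in 14 of replicate 2, and the 14 were among the 20. The highest of these, from 20.6 to 20.7 Mb, had 76.6% in replicate 1 and 75.0% in replicate 2, and the adjoining windows from 11 to 11.1 and 11.1 to 11.2 Mb had 75.4% and 71.7% in replicate 1 and 72.8% and 68.4% in replicate 2. The window from 11.4 to 11.5 Mb, 200 kb further on, was empty in both. Neighbouring windows were weakly alike, with a Pearson correlation of coverage of 0.22 in replicate 1 and 0.19 in replicate 2, and windows 200 kb apart had correlations of 0.0012 and 0.00012.

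With the stretch cut into 3 equal parts, the replicates differed least in coverage in the part nearest the telomere. In 23 of 25 windows of 1 Mb replicate 1 covered more than replicate 2. The exceptions were the windows from 23 to 24 Mb (16.1% and 17.4%) and from 25 to 26 Mb (22.9% and 23.9%). The last piece of the arm, from 27 to 27.9 Mb, is shorter than 1 Mb and not among the 25. It had 22.6% in replicate 1 and 17.0% in replicate 2. Replicate 1 minus replicate 2 had a Spearman correlation with the distance from the centromere of -0.52 over the 25 windows of 3R, against -0.73 on X, -0.73 on 3L and -0.32 on 2L, so the direction was common to these arms. With the stretch cut into 3 equal parts, density in replicate 1 was 72.6 per Mb nearest the centromere, 71.4 in the middle and 59.9 nearest the telomere. In replicate 2 it was 35.1, 33.7 and 36.6 per Mb, and its coverage was 18.9%, 18.8% and 18.8%. Coverage in replicate 1 was 25.9%, 25.1% and 22.2%. Replicate 2 held 53.0% of the replicate 1 regions nearest the centromere, 55.6% of those in the middle and 63.4% of those nearest the telomere. In the other direction the shares ran opposite, with 96.2%, 96.1% and 91.5% of replicate 2 regions found in replicate 1, and 27 of its 49 unshared regions lay nearest the telomere. Whether depth differed between the libraries is unknown, and its part in this was not tested.

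The borders of the rule were set by position, and H2Av regions lay on both sides of each. The first member above 2 Mb was at 2005956 to 2007921 in replicate 1 (score 1.46) and at 2163777 to 2177966 in replicate 2 (score 1.49). The last region left out below it was at 1995740 to 1998024 in replicate 1 (score 0.847) and at 1833692 to 1838347 in replicate 2 (score 0.944). Just below the first Hox stretch the last members were at 2469452 to 2473802 in replicate 1 (score 1.53) and at 2469214 to 2473763 in replicate 2 (score 1.14). The regions left out just inside it were at 2481571 to 2490256 (score 1.29) and 2481643 to 2488730 (score 1.30). Toward its upper border the last regions left out were at 2722548 to 2724045 in replicate 1 (score 1.07) and 2584045 to 2586053 in replicate 2 (score 0.524). The first members above it were at 2865190 to 2866502 (score 0.611) and 2885855 to 2889626 (score 0.494). At the second stretch a replicate 2 region at 12463697 to 12481407 reached across the border and was kept by its midpoint. Replicate 1 called that place as a member at 12471231 to 12474635 (score 1.35) and a region left out at 12475121 to 12485077 (score 1.30). Above the second stretch the first members began at 12812079 and 12812861, with widths of 11814 and 11567 bp and scores of 1.24 and 1.25. The last regions left out before them were at 12808055 to 12811726 in replicate 1 (score 0.644) and at 12802189 to 12803604 in replicate 2 (score 0.380). At the telomere end the last region stopped 5367 bp before the end of the assembled arm in replicate 1 and 8672 bp before it in replicate 2.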

How the data were processed

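The deposited files used here are 3 lists of H2Av-enriched regions in GFF3, 1 for each ChIP replicate and 1 for both. Per the submitters' processing notes the aligner was Bowtie 0.12.7. Per the file headers the genome build is FlyBase release 5. For the peak caller, its filters and the making of the combined list, the method is not given in the sources used here. Regions carry as deposited value a score of the authors, of unstated scale, so scores were ranked within a list and compared between lists only as correlations. The number of regions can move with depth, which is unknown.

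Regions and lists were chosen with earlier results of these data known. Coverage counts each base once within the stretch. X, 2L and 3L were read without the 2 Mb next to the centromere, and no stretch like the Hox ones of 3R was left out of them. Gaps were measured between neighbouring members and not across a Hox stretch. Windows of 100 kb with under 50% of their bases in use were left out. Named regions follow a rule: the 6 highest-scoring and the 6 widest combined regions that overlap both replicates, the 3 highest-scoring regions of each replicate alone, the 5 longest pieces empty in all lists, and the 3 most and 3 least covered windows of 1 Mb. The top 10 scores of the combined list, the longest runs and the windows of 100 kb were chosen after their values were seen. Intervals cover counting error only. Alternatives were the higher-scoring 50% of each list, whole arms, joined regions, the combined list, other overlaps, windows and gap limits, and each replicate left out. Measures were tested on simulated lists with known answers. Python 3.11.15, numpy 2.4.6, pandas 2.3.3 and scipy 1.17.1 were used. A gene table on release 6 was not used with these positions.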

Additional observations from a re-analysis of the deposited data

How the results depend on the processing

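Leaving out either replicate says nothing of stability, since each of 2 values lies within their SD of the mean. Of the 46 other alternative values for 11 results, 27 stayed within the spread of the replicates, or within the interval of a share or correlation, or kept the sign of a difference. That count is no measure of stability. The spread of 2 unlike lists is wide, as for density with 51.5 ± 23.1 regions per Mb. Runs set by gaps under 5 kb cannot change when regions less than 500 bp apart are joined. The difference in coverage of 3R minus X, 2L and 3L did not keep its sign: it was 0.633 percentage points as reported, -0.212 when only the higher-scoring 50% of a list was kept, and -0.0346 with whole arms, and it ran from -0.0436 to 1.31 with either replicate left out. The higher-scoring 50% of each list, which holds fewer regions, gave a coverage of 14.3%, a density of 22.2 regions per Mb, a median width of 5069 bp, a median gap of 11119.5 bp, a broad share of 17.9% and a score correlation of 0.49. The median gap was 4604 bp with regions less than 500 bp apart joined, which removes the short gaps, and 2581 bp in the combined list, where the cause was not tested. Runs with gaps under 2500 bp numbered 29.1 per Mb, against 20.5 at 5 kb. Replicate 2 regions found in replicate 1 fell to 89.1% in the higher-scoring 50%, 75.1% with 50% of both regions overlapping, 83.4% with 50% of the region counted and 73.02% with lists of the same length on 3R. For replicate 1 regions found in replicate 2 these values were 67.5%, 38.9%, 49.6% and 75.96%. With lists of the same length the order of the 2 shares thus turned, which can come only from regions that meet several of the other list. No paired analysis was possible because the replicate numbers pair ChIP with input libraries, and only the ChIP ones come with regions. The sign-flip test pairs arms within a list, not libraries. With either replicate left out, coverage ran from 18.8% to 24.4%, density from 35.2 to 67.8 regions per Mb, the median width from 2530 to 3749 bp, the median gap from 2929 to 3823 bp, the broad share from 4.44% to 13.3% and runs from 15.6 to 25.5 per Mb.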
